A study of Mus musculus with 29 samples.

Results

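Postsynaptic scaffold genes were followed across amygdala and medial prefrontal pyramidal neurons of mice grouped as Sus-T or Res-T, with or without trauma. There were 8 of them among the 10678 genes of the deposited tables: Dlg4, Dlg3, Dlgap1, Homer1, Iqsec2, Sipa1l1, Ppp1r9b and Nlgn2. They were picked by name with their measured levels in these libraries known, so their amygdala differences, and those between Sus-T and Res-T with trauma in the cortex, are given as descriptions with no test. All 8 were listed in the amygdala and 4 (Dlg3, Homer1, Iqsec2 and Nlgn2) in the prefrontal cortex.

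All mice carried the Thy1-YFP transgene on a B6 background, B6.Cg-Tg(Thy1-YFP)HJrs/J, in which the Thy1 promoter drives a yellow fluorescent protein in subsets of projection neurons. Tissue punches were dissociated, pyramidal neurons were sorted by flow cytometry, and ultra-low-input RNA libraries were made after removal of ribosomal RNA. The amygdala tables held 4 Sus-T and 4 Res-T libraries with trauma, and 2 Sus-T and 3 Res-T libraries without. The prefrontal tables held 4 Sus-T and 3 Res-T libraries with trauma, and 2 Sus-T and 4 Res-T libraries without. The labels do not spell out Sus-T, Res-T or the trauma, and give no age. The design text counts 9 amygdala mice where the tables hold 13 columns, so 1 animal may have given several libraries, and p-values measure only the spread between libraries.

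A postsynaptic scaffold is the protein lattice under the receptors of a synapse. At excitatory synapses, membrane-associated guanylate kinases of the Dlg family hold receptors and adhesion molecules, Dlgap proteins join them to Shank, and Homer links Shank to metabotropic glutamate receptors. Regulators of small GTPases and actin-binding proteins sit in the same lattice and shape the dendritic spine, whereas inhibitory synapses use a separate scaffold built around gephyrin. In the amygdala and medial prefrontal cortex, such synapses on pyramidal neurons are known as sites of fear learning and extinction.

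Promoter sequences of RefSeq on GRCm38.p6, from 250 bases before to 50 bases after an annotated start, were available for 8 members, with 15 promoters in all. The 3 shown belong to Dlg4 and Iqsec2, whose amygdala Sus-T and Res-T libraries did not overlap, and to Homer1, whose libraries did. Capitals mark the GC box, GGGCGG on either strand, in Dlg4 and Iqsec2. In Homer1 they mark the core of the cAMP-response element, TGACGT on either strand. No other searched motif overlapped the capitals.
Dlg4, chr11:70023732-70024031, plus strand: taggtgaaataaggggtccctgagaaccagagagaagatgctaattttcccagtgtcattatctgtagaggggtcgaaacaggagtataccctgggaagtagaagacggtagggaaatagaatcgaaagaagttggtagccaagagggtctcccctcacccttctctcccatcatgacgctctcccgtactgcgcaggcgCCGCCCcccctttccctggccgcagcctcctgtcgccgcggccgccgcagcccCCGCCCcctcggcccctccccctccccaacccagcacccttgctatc
Iqsec2, chrX:152144018-152144317, plus strand: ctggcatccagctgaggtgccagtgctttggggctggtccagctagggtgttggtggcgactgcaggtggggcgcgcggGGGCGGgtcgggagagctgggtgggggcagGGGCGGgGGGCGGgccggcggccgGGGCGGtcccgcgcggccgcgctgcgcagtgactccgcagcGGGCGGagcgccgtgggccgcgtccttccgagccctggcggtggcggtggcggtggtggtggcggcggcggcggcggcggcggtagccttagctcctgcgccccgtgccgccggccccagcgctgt
Homer1, chr13:93303507-93303806, plus strand: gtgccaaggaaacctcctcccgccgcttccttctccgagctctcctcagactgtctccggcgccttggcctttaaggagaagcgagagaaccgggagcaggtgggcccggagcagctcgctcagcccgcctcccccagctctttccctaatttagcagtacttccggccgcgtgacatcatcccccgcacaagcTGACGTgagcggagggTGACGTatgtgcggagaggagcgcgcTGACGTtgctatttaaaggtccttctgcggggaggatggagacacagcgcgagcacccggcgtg
Searched on both strands, GGGCGG occurred in 5 of these 15 promoters, 1 each of Dlg4, Dlg3, Iqsec2, Sipa1l1 and Nlgn2, against 35.7% of all 32851 promoters of this length. The 5 matches of Iqsec2 and the 3 of Nlgn2 were the most among members. The TGACGT element occurred in 1 of the 15, this Homer1 promoter, 3 times, against 7.51% of all promoters. The CCAAT box was found in 3 of the 15, of Dlg3, Iqsec2 and Sipa1l1, against 37.4% of all promoters. The palindrome TGCGCA, the core of the NRF1 motif, was found in 2 of the 15, of Dlg4 and Iqsec2, against 7.76%. These matches describe letters in a window, not binding.

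The files gave normalized values in arbitrary units, read here as a signal, with library totals of 3267967 to 4021272 in the amygdala and 2095138 to 2444486 in the cortex. Read depth is unknown and no value was 0. Among 9 pyramidal markers, the amygdala tables held Nrgn and Camk2n1 and the prefrontal tables held none; Slc17a7, Neurod6 and Thy1 itself were in neither, so the sort could not be checked by its defining genes. Oligodendrocyte markers, by contrast, were listed for 15 of 16 genes in the amygdala and 10 of 16 in the cortex. Their summed share of a library was 3.32 to 4.09% in amygdala Sus-T with trauma, 3.65 to 5.09% in Res-T with trauma, 1.39 to 2.25% in Sus-T without trauma, against 5.45 to 6.21% in Res-T without trauma. The part of other cells in the results below was not tested. Some fits below add oligodendrocyte markers as a covariate, and no other cell type was added. Where oligodendrocyte shares did not overlap between the compared groups, such a fit cannot cleanly separate group from covariate. In such bulk libraries fewer cells of a type and less RNA per cell cannot be told apart.

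In the amygdala, mean levels of the scaffold genes were lowest in Res-T without trauma, intermediate in Res-T with trauma and highest in the Sus-T groups. The order was clearest for Dlg4, Dlgap1, Iqsec2, Sipa1l1 and Ppp1r9b, and weaker for Dlg3, Homer1 and Nlgn2. The values below are deposited signal per library, in the order of replicate numbers, and gene positions are on GRCm38.p6.

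Dlg4 (chr11:70016942-70047522, plus strand) encodes PSD-95, the main Dlg scaffold of mature excitatory synapses, which anchors AMPA and NMDA receptor complexes. It had 1177, 579, 596 and 554 in Sus-T with trauma, against 356, 231, 388 and 421 in Res-T with trauma. Without trauma it had 846 and 1077 in Sus-T, against 162, 116 and 154 in Res-T. Every Sus-T library lay above every Res-T library, and the first Sus-T with trauma library stood well above the other 3 of its group. That library also had the highest pyramidal marker share, 0.119%, and the part of this in its values was not tested. The log2 difference of value plus 1, Sus-T minus Res-T, was 1.02 ± 0.24 (SE) with trauma and 2.73 ± 0.31 without. Dlg3 (chrX:100767722-100818410, plus strand) encodes SAP102, a related scaffold that carries NMDA receptors and is prominent in development. It had 142, 131, 141 and 135 in Sus-T with trauma, against 117, 159.5, 118 and 99.5 in Res-T with trauma, and these groups overlapped through the second Res-T library. In animals without trauma Dlg3 had 187 and 183 in Sus-T, against 101, 80.3 and 109 in Res-T, with no overlap. Its differences were smaller than those of Dlg4, at 0.17 ± 0.21 with trauma and 0.94 ± 0.27 without.

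Dlgap1 (chr17:69969073-70821413, plus strand) encodes the linker between Dlg4 and Shank. It had 905, 637, 678 and 599.8 in Sus-T with trauma, against 471, 425, 345 and 384 in Res-T with trauma. Dlgap1 without trauma had 826 and 1329 in Sus-T, against 209.6, 150.4 and 160.3 in Res-T. No Sus-T library overlapped a Res-T library, and the differences were 0.79 ± 0.19 with trauma and 2.60 ± 0.25 without. An annotated transcript on the opposite strand overlaps Dlgap1 exons, and whether counting used strand is not given in the sources used here. Homer1 (chr13:93299635-93405129, plus strand) encodes the linker of Shank to metabotropic receptors and also a short, activity-induced form that uncouples them, which a gene-level value does not separate. It had 1486, 331, 423 and 533 in Sus-T with trauma, against 257, 220.3, 339 and 465 in Res-T with trauma. Here the groups overlapped, and the first Sus-T library carried much of the gap. Homer1 without trauma had 634 and 398 in Sus-T, against 221, 279 and 282 in Res-T. The differences were 0.91 ± 0.36 with trauma, 0.45 when the first Sus-T with trauma library was left out, and 0.95 ± 0.46 without trauma.

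Iqsec2 (chrX:152144268-152225236, plus strand), an exchange factor for Arf GTPases that binds PSD-95, had 264, 215, 205 and 251 in Sus-T with trauma, against 147, 149, 103 and 128 in Res-T with trauma. Iqsec2 without trauma had 257 and 331 in Sus-T, against 70.3, 64 and 48.9 in Res-T. Its groups were narrow and did not overlap, with differences of 0.83 ± 0.21 with trauma and 2.25 ± 0.27 without. Sipa1l1 (chr12:82169320-82451786, plus strand), a spine protein that switches off Rap GTPases, had 1738, 658, 691 and 656 in Sus-T with trauma, against 318, 413, 335 and 389.9 in Res-T with trauma. Sipa1l1 without trauma had 813 and 924 in Sus-T, against 149.7, 106 and 154 in Res-T. As for Dlg4, the first Sus-T with trauma library was far above its group while the other 3 still exceeded all Res-T libraries. The differences were 1.23 ± 0.26 with trauma and 2.68 ± 0.33 without.

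Ppp1r9b (chr11:94991035-95006899, plus strand) encodes spinophilin, which binds actin and targets protein phosphatase 1 to spines. It had 2697, 1420.4, 1315 and 1686 in Sus-T with trauma, against 872, 490.4, 574 and 1118 in Res-T with trauma. Ppp1r9b without trauma had 1856 and 2630.1 in Sus-T, against 411, 544 and 356 in Res-T. The groups did not overlap, and the differences were 1.24 ± 0.26 with trauma and 2.36 ± 0.34 without. Nlgn2 (chr11:69823122-69837784, minus strand) is the member that belongs to inhibitory synapses, where this adhesion protein binds neurexins and gathers gephyrin. It had 298, 440.5, 331 and 373 in Sus-T with trauma, against 336, 416, 332 and 232 in Res-T with trauma, with overlap throughout. Nlgn2 without trauma had 333 and 475 in Sus-T, against 227, 246 and 179 in Res-T, with none. Its differences were the smallest of the 8, at 0.15 ± 0.20 with trauma and 0.88 ± 0.26 without.

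**Figure D1:**
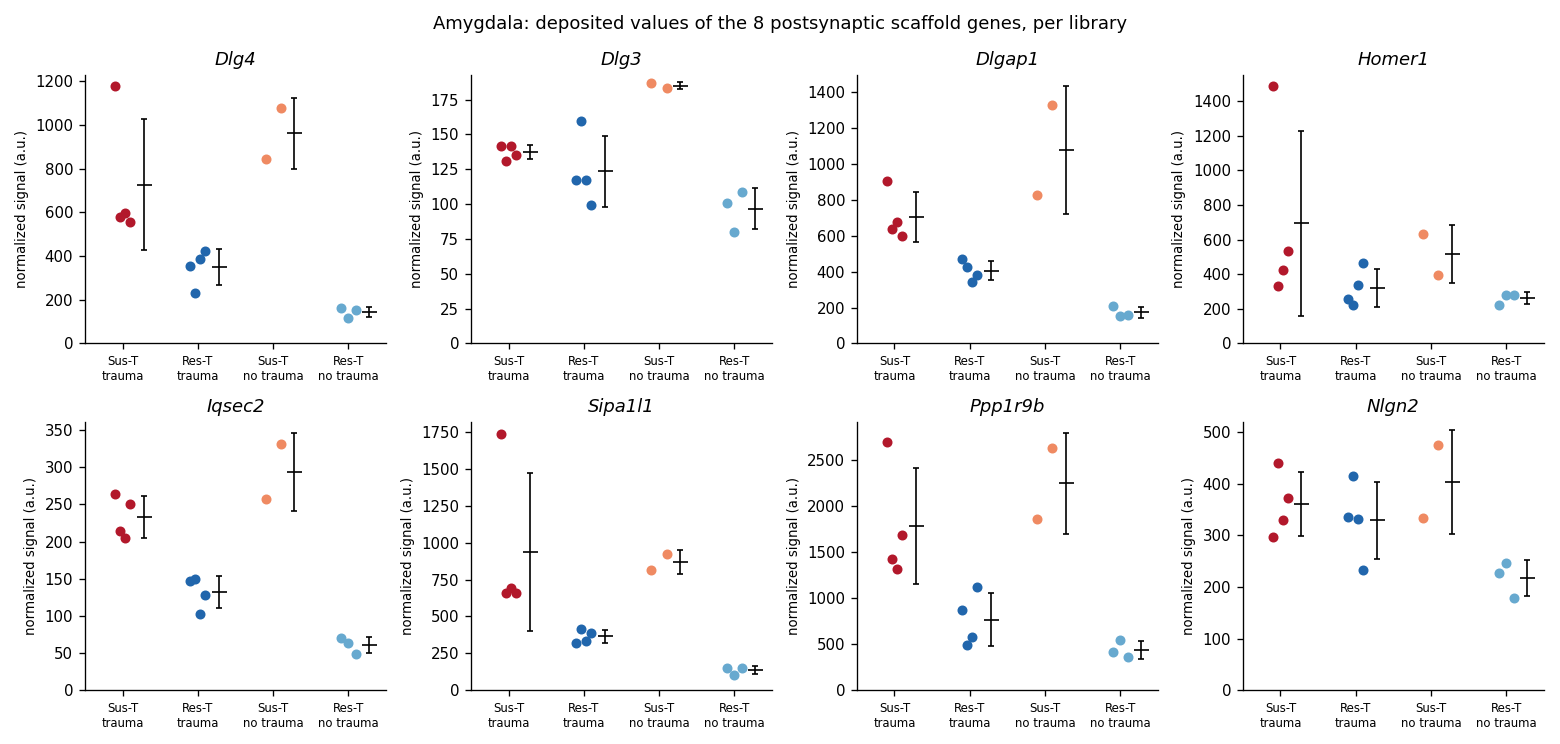
Deposited signal (arbitrary units, linear axis from 0) of the 8 scaffold genes in each amygdala library, by group; points are libraries, and the bar beside them is the mean ± SD (n = 4, 4, 2 and 3 libraries, left to right). The Res-T without trauma points lie below all others for Dlg4, Dlgap1, Iqsec2 and Sipa1l1, and 1 Sus-T with trauma library is far above its group for Dlg4 (1177) and Sipa1l1 (1738).

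Per kilobase of the longest coding transcript, Ppp1r9b had the highest signal of the 8 in each amygdala group, at 395 ± 140.0 in Sus-T with trauma, 169 ± 63.8 in Res-T with trauma, 498 ± 121 in Sus-T without trauma, against 96.9 ± 21.4 in Res-T without trauma (SD, n = 4, 4, 2 and 3). Iqsec2 and Dlg3 were the lowest in 3 of the groups, and Iqsec2 and Sipa1l1 (16.6 per kilobase) in Res-T without trauma. Iqsec2 per kilobase was 38.8 ± 4.70 in Sus-T with trauma, 21.9 ± 3.56 in Res-T with trauma, 48.9 ± 8.71 in Sus-T without trauma, against 10.1 ± 1.83 in Res-T without trauma. Whether the authors had already scaled by length is not given in the sources used here.

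Without trauma, all 8 genes had non-overlapping libraries, higher in Sus-T, beside 27.7% of all amygdala genes; 12.4% of genes passed an adjusted p under 0.05 as higher and 15.0% as lower. Their median log2 difference was 2.31, against -0.03 over all genes. With trauma, 5 of 8 (Dlg4, Dlgap1, Iqsec2, Sipa1l1 and Ppp1r9b) did not overlap, beside 3.46% of all genes, and the median was 0.87 against 0.01. Since these contrasts were known when the genes were picked, nothing is read from the counts. No amygdala gene passed the adjusted threshold in limma's test between Sus-T and Res-T with trauma (0.0% higher), while 1142 had an unadjusted p under 0.05. The pyramidal markers Camk2n1 and Nrgn were there at 1.45 ± 0.43 and 1.42 ± 0.74 (adjusted p = 0.20 and 0.48 by limma). Mean pyramidal shares were 0.056% in Sus-T with trauma against 0.018% in Res-T with trauma, and astrocyte shares 1.29% against 0.68%. Both shares overlapped between libraries, and their part in the differences was not tested.

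In the amygdala without trauma, oligodendrocyte marker shares were lower in Sus-T than in Res-T, and pyramidal, astrocyte and microglial shares higher. The interneuron share was lower too, but only 2 of 9 markers, Dlx1 and Erbb4, were measured. Of these, 1 was called lower, and their median log2 difference was 0.06. Vascular and precursor shares overlapped. Without trauma, limma (Benjamini-Hochberg over all genes) called 14 of 15 oligodendrocyte markers lower in Sus-T than in Res-T, with a median log2 difference of -2.0, and 6 of 10 astrocyte and 3 of 3 microglial markers higher. The pyramidal genes Camk2n1 (log2 difference 3.17 ± 0.55 SE, adjusted p = 0.00068) and Nrgn (3.08 ± 0.96, adjusted p = 0.026) rose in the same comparison; Nrgn encodes a calmodulin-binding postsynaptic protein and Camk2n1 an inhibitor of CaMKII. Their summed share was 0.0431 to 0.0545% in Sus-T without trauma, against 0.00347 to 0.00574% in Res-T without trauma. The mean log2 value of the measured oligodendrocyte markers was then added to the model (the oligodendrocyte covariate). With it, the scaffold genes' differences without trauma were 2.71 ± 0.91 for Dlg4, 3.91 ± 0.62 for Dlgap1, 3.27 ± 0.70 for Iqsec2 and 3.40 ± 0.95 for Sipa1l1. In that fit Ppp1r9b differed by 2.86 ± 0.97, Nlgn2 by 2.37 ± 0.64, Dlg3 by 1.25 ± 0.74 and Homer1 by -0.37 ± 1.29, so Homer1 turned its direction. The summed oligodendrocyte share did not overlap between these groups, and the errors of that fit are wide. With trauma, the same covariate left Dlg4 at 1.01 ± 0.27, Dlgap1 at 0.95 ± 0.18 and Iqsec2 at 0.96 ± 0.21. Sipa1l1 was at 1.32 ± 0.28 and Ppp1r9b at 1.30 ± 0.29. Homer1 was at 0.74 ± 0.39, Nlgn2 at 0.33 ± 0.19 and Dlg3 at 0.21 ± 0.22.

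**Figure D2:**
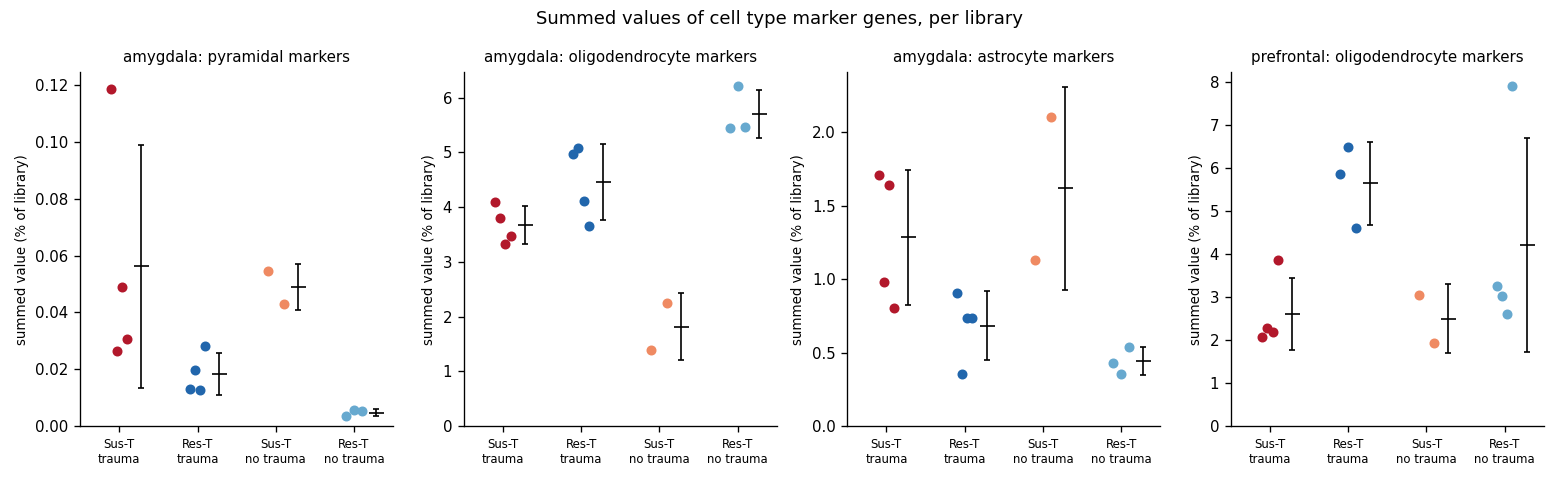
Summed signal of marker genes as percent of the library total (linear axis from 0) in amygdala libraries for pyramidal, oligodendrocyte and astrocyte lists, and in prefrontal libraries for oligodendrocyte markers; points are libraries, bars are mean ± SD. Amygdala oligodendrocyte shares are lowest in Sus-T without trauma (1.39 to 2.25%) and highest in Res-T without trauma (5.45 to 6.21%).

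Libraries with trauma were set against those without within each group, to describe what trauma changed. In Res-T the scaffold genes had higher values with trauma for all 8, and in Sus-T lower fitted values for 7 of 8. The Sus-T signs of Sipa1l1, Nlgn2 and Homer1 turned when single libraries were left out. These contrasts share libraries with the ones above, so they are not independent of them.

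In Res-T, the log2 difference with minus without trauma was 1.42 ± 0.28 (SE) for Sipa1l1, 1.25 ± 0.26 for Dlg4, 1.23 ± 0.21 for Dlgap1 and 1.10 ± 0.22 for Iqsec2. For these 4 genes no library with trauma overlapped one without, beside 9.68% of all genes. The other members, Ppp1r9b at 0.75 ± 0.28, Nlgn2 at 0.58 ± 0.22, Dlg3 at 0.34 ± 0.22 and Homer1 at 0.24 ± 0.39, overlapped. Oligodendrocyte shares were lower with trauma, at 3.65 to 5.09% against 5.45 to 6.21%. With the oligodendrocyte covariate the values were 1.63 ± 0.38 for Sipa1l1, 1.24 ± 0.36 for Dlg4, 1.61 ± 0.25 for Dlgap1 and 1.39 ± 0.28 for Iqsec2. In that fit Nlgn2 was at 1.01 ± 0.26 and Homer1 at -0.14 ± 0.52. The pyramidal marker share did not overlap either, at 0.0126 to 0.0283% with trauma against 0.00347 to 0.00574% without. Camk2n1 rose by 1.67 ± 0.46 (adjusted p = 0.043 by limma), while Nrgn differed by 1.78 ± 0.80 and did not pass (adjusted p = 0.19). The part of the pyramidal share in these values was not tested.

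In Sus-T, the differences ran from -0.59 ± 0.23 for Dlgap1 to 0.20 ± 0.44 for Homer1. The Dlgap1 value hung on the small group without trauma, at -0.93 when its replicate 1 was left out and -0.25 when its replicate 3 was. Dlg3 alone among the 8 had non-overlapping libraries, at 142, 131, 141 and 135 with trauma against 187 and 183 without (-0.43 ± 0.25), beside 7.77% of all genes lower without overlap. Without the first Sus-T with trauma library, the Homer1 difference was -0.25. Oligodendrocyte shares were 3.32 to 4.09% with trauma against 1.39 to 2.25% without. With the oligodendrocyte covariate the Sus-T differences were -1.36 ± 0.39 for Dlgap1, -1.03 ± 0.41 for Nlgn2, -0.92 ± 0.45 for Iqsec2 and 0.98 ± 0.83 for Homer1. The trauma difference in Sus-T minus that in Res-T was negative for all 8, from -1.82 ± 0.31 for Dlgap1 to -0.04 ± 0.59 for Homer1, with a median of -1.27 against 0.02 over all genes. For Homer1 its sign turned when single libraries were left out (-0.50 to 0.29). In the same contrast 14 of 15 oligodendrocyte markers had a positive difference past the threshold (limma), beside 4.76% of all genes. With the oligodendrocyte covariate, Homer1 turned to 1.11 ± 1.2, and Dlgap1 was at -2.96 ± 0.57, Iqsec2 at -2.31 ± 0.65 and Nlgn2 at -2.04 ± 0.60, against -0.74 ± 0.33 for Nlgn2 without it.

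**Figure D3:**
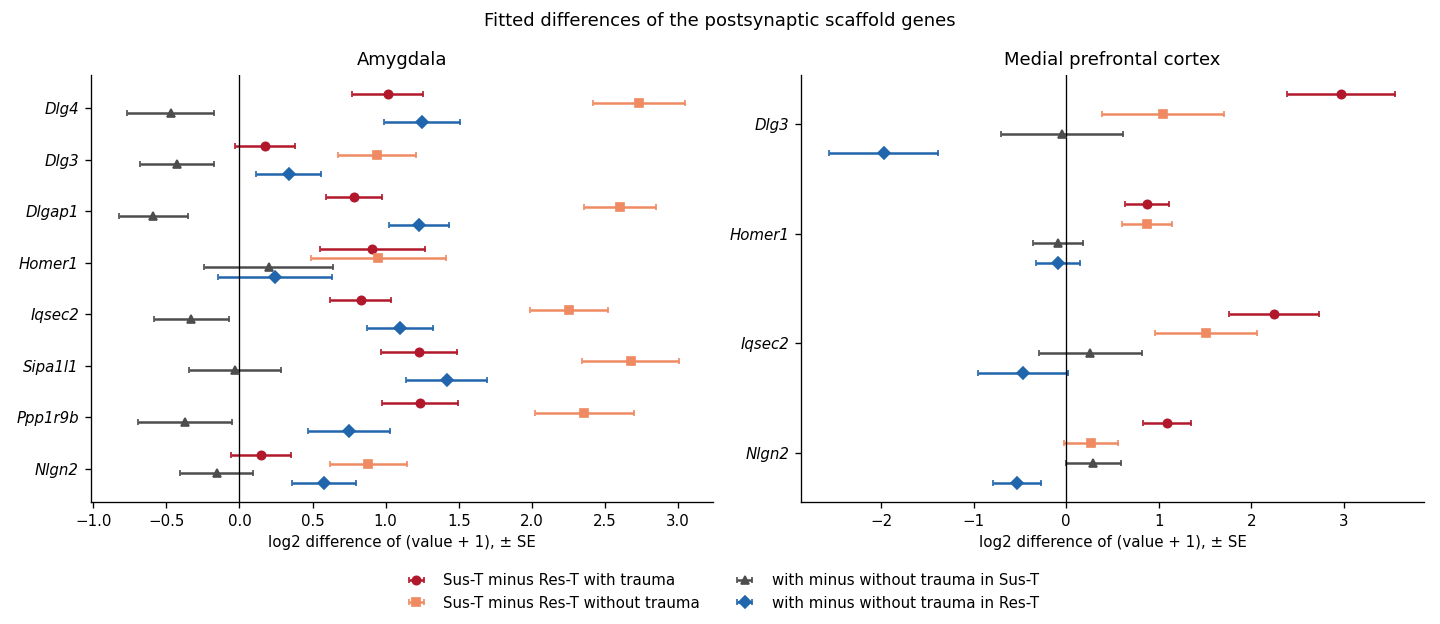
Fitted log2 differences of value plus 1 (points) with SE (bars) for each scaffold gene, by comparison, in the amygdala (left) and medial prefrontal cortex (right); the vertical line marks 0. Amygdala points without trauma lie furthest right for Dlg4 (2.73) and Sipa1l1 (2.68), and prefrontal Dlg3 with trauma is at 2.97.

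In the medial prefrontal cortex, the 4 measured scaffold genes were higher in Sus-T than in Res-T with trauma, with no overlap between libraries for any of them. The Dlg3 gap was the widest. Dlg4, Dlgap1, Sipa1l1 and Ppp1r9b were not in the prefrontal tables and are not analysed there.

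Dlg3 had 207, 121, 198 and 117 in prefrontal Sus-T with trauma, against 18.3, 9.97 and 36.1 in Res-T with trauma (log2 difference 2.97 ± 0.58 SE). Dlg3 without trauma had 196 and 130.2 in Sus-T, against 90.9, 203, 86.2 and 21.6 in Res-T. The last group spread about as widely as all other libraries together. Homer1 had 568, 626, 754 and 476 in Sus-T with trauma, against 310.1, 326 and 341 in Res-T with trauma (0.88 ± 0.24). Homer1 without trauma had 721 and 556 in Sus-T, against 297, 372, 504 and 256 in Res-T. In both conditions its Sus-T libraries lay above its Res-T libraries.

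Iqsec2 had 476, 271, 333 and 337 in prefrontal Sus-T with trauma, against 77.5, 135 and 35.9 in Res-T with trauma (2.25 ± 0.49). Iqsec2 without trauma had 275 and 303 in Sus-T, against 131, 47, 253 and 65.1 in Res-T, again with none overlapping. Nlgn2 had 579.7, 398, 446 and 359 in Sus-T with trauma, against 228, 258 and 147 in Res-T with trauma (1.09 ± 0.26). Its libraries without trauma overlapped, at 426 and 300.1 in Sus-T against 334, 221, 359 and 290.3 in Res-T.

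**Figure D4:**
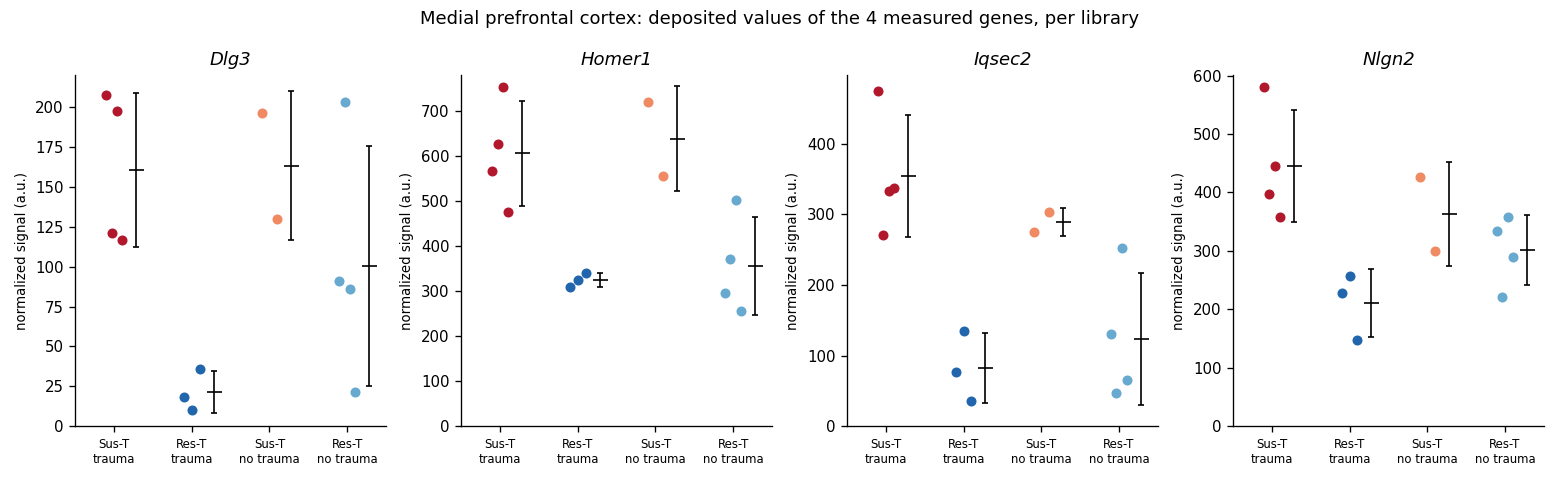
Deposited signal (arbitrary units, linear axis from 0) of the 4 measured scaffold genes in each prefrontal library, by group; points are libraries and bars are mean ± SD (n = 4, 3, 2 and 4, left to right). The Res-T with trauma libraries sit below all Sus-T with trauma libraries for each gene, and the Res-T without trauma libraries are spread, from 21.6 to 203 for Dlg3.

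With trauma, the median of the 4 genes was 1.67, against 0.15 over all prefrontal genes; 24.4% of all genes had higher, non-overlapping libraries and 14.0% passed as higher. This contrast was probably in view when the genes were picked, so no p is given. Oligodendrocyte shares were 2.09 to 3.87% in Sus-T with trauma, against 4.60 to 6.49% in Res-T with trauma. Of 10 oligodendrocyte markers, 8 were called lower, beside 8.93% of all genes. Pdgfra, the only precursor marker measured there, was called higher (1.72). Its share was 0.0243 to 0.0523% in Sus-T with trauma, against 0.00867 to 0.0114% in Res-T with trauma. With the oligodendrocyte covariate the differences were 1.35 ± 0.66 for Dlg3, 1.98 ± 0.71 for Iqsec2, 1.17 ± 0.38 for Nlgn2 and 0.40 ± 0.30 for Homer1, with no gene of the table called. None of the 9 pyramidal markers was measured there.

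Without trauma, Sus-T against Res-T in the cortex passed the test for none of the 4 genes (limma, adjusted over all 6080 genes). The log2 difference was 1.51 ± 0.55 (SE) for Iqsec2 (adjusted p = 0.40), 1.05 ± 0.66 for Dlg3 (adjusted p = 0.60), 0.87 ± 0.27 for Homer1 (adjusted p = 0.33) and 0.27 ± 0.30 for Nlgn2 (adjusted p = 0.78). Iqsec2 and Homer1 libraries did not overlap, beside 8.16% of all genes. With the oligodendrocyte covariate Dlg3 was at 0.20 ± 0.57, while Iqsec2 was at 1.38 ± 0.62, Homer1 at 0.63 ± 0.26 and Nlgn2 at 0.31 ± 0.33. No gene of the table passed (0.0% higher), and 630 had an unadjusted p under 0.05.

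Trauma in prefrontal Res-T went with a Dlg3 difference of -1.97 ± 0.58 (adjusted p = 0.20 by limma), which did not pass. The failure to pass, not the direction, hung on the fourth Res-T without trauma library. That library had the lowest Dlg3 and Homer1 of its group and an oligodendrocyte share of 7.91%, against 2.60 to 3.27% in the other 3. Left without that library, the Dlg3 difference was -2.57 and passed (adjusted p = 0.0051 by limma), among 588 genes of the table that then passed. Leaving out the lowest Dlg3 value of that group must widen the difference, so nothing is read from the pass. With the oligodendrocyte covariate and all libraries kept, the Dlg3 difference was smaller, at -1.15 ± 0.51. Nlgn2 differed by -0.53 ± 0.26 (adjusted p = 0.35), Iqsec2 by -0.47 ± 0.49 (adjusted p = 0.67) and Homer1 by -0.09 ± 0.24 (adjusted p = 0.89) in the same limma fit. In prefrontal Sus-T the trauma differences ran from -0.08 ± 0.27 for Homer1 to 0.29 ± 0.30 for Nlgn2. The difference between trauma effects, Sus-T minus Res-T, was 1.93 ± 0.88 for Dlg3 and 0.82 ± 0.39 for Nlgn2 (adjusted p = 0.77 for each, limma), and with the covariate 1.15 ± 0.73 for Dlg3. No gene of the table passed in these 3 comparisons, and 899, 91 and 371 had an unadjusted p under 0.05. All 3 share libraries with trauma with the Sus-T against Res-T contrast that was probably known when members were picked. The members' p-values here are therefore not independent of that choice, and nothing is read from them.

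Among the prefrontal groups, Res-T with trauma had the lowest mean of each gene, whereas in the amygdala that was Res-T without trauma. For Dlg3, the means were 161 ± 48.5 in Sus-T with trauma, 21.4 ± 13.3 in Res-T with trauma, 163 ± 46.9 in Sus-T without trauma, against 100.4 ± 75.3 in Res-T without trauma (SD, n = 4, 3, 2 and 4). With the groups of each prefrontal gene ranked by mean, ranges of groups next in rank overlapped, except Sus-T and Res-T without trauma for Iqsec2. Sus-T and Res-T with trauma were not next in rank for any of the 4 genes, and did not overlap. The tables of the regions were normalized apart, so the difference between regions was not tested.

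Other genes of the postsynaptic lattice came from a list of 49 written from general knowledge, of which 33 were measured in the amygdala and 21 in the cortex. The list was written with earlier results of these data known, so its counts and p-values are not independent of those results. In the amygdala without trauma, 16 of 33 rose in Sus-T and 2 fell, while 15 did not pass; 12.4% of all genes rose and 15.0% fell. The list's median log2 difference was 0.69, against -0.03 over all genes, so it lay between that of all genes and that of the 8 scaffold genes (2.31). Oligodendrocyte and pyramidal marker shares differed between the same libraries as given above, and with the oligodendrocyte covariate 2 of the 33, Psd and Shank2, passed. That fit left Homer2 at 0.41, Dlg2 at 0.56 and Tanc1 at -0.10, smaller than the values below.

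The Shank, Homer and Dlgap group had the highest median log2 difference of the 5 subgroups of the list, 2.79, with all 3 measured members rising. Shank2, the scaffold below Dlgap proteins, had 452 ± 156 in Sus-T without trauma, against 35.9 ± 8.06 in Res-T without trauma (SD, n = 2 and 3; log2 difference 3.6, adjusted p = 0.00016 by limma). Homer2, a paralog of Homer1, rose by 2.79 (adjusted p = 0.020) and Dlgap4, a paralog of Dlgap1, by 2.01 (adjusted p = 5.9e-05). Leaving out single libraries of these groups kept the Shank2 and Dlgap4 calls in 5 of 5 cases and the Homer2 call in 1 of 5.

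Among regulators of small GTPases, 4 of 8 rose. Psd, an Arf6 exchange factor, had 323 ± 100.4 in Sus-T without trauma, against 21.1 ± 1.98 in Res-T without trauma (SD, n = 2 and 3; log2 difference 3.84, adjusted p = 2.3e-05 by limma). Kalrn, an exchange factor for Rac that enlarges spines, rose by 2.38 (adjusted p = 3.9e-05 by limma). Leaving out single libraries kept the Psd and Kalrn calls in 5 of 5 cases. Of the Dlg and Magi group, 2 of 7 rose and 1 fell. Dlg2, the PSD-93 paralog of Dlg4, had 2179 ± 242 in Sus-T without trauma, against 793 ± 103 in Res-T without trauma (1.46, adjusted p = 0.0044 by limma), Magi3 rose by 1.69 (adjusted p = 0.010) and Magi1 fell by 0.71 (adjusted p = 0.025).

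Of the kinase-linked and actin-linked adaptors, 2 of 7 rose and 1 fell in limma's test. Cnksr2, a Ras-pathway adaptor that binds PSD-95, rose by 2.70 (adjusted p = 7.2e-05) and Tanc2 by 0.69 (adjusted p = 0.023). Tanc1 went the other way, with 298 ± 111 in Sus-T without trauma, against 684 ± 56.0 in Res-T without trauma (-1.25, adjusted p = 0.0023 by limma). Adhesion and inhibitory scaffold genes rose in 5 of 8, among them Nlgn3, a paralog of Nlgn2, by 0.88 (adjusted p = 0.014 by limma) and Lrrtm3, a neurexin-binding adhesion protein, by 1.92 (adjusted p = 0.020). Calls of Tanc2, Nlgn3, Lrrtm3 and Magi1 were lost in at least 3 of the 5 leave-outs.

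With trauma, none of the 33 passed between amygdala Sus-T and Res-T in limma's test, 11 had an unadjusted p under 0.05, and the list's median was 0.29 against 0.01. Psd (1.89 ± 0.34 SE, adjusted p = 0.072) and Kalrn (1.2 ± 0.23, adjusted p = 0.072) had the smallest p and did not pass. Alternatives changed this count, to 2 under a replicate block or without Sus-T with trauma replicate 4, and to 1 with the oligodendrocyte covariate or without Res-T with trauma replicate 2. Trauma in Res-T went with 5 of 33 rising and 1 falling, beside 3.3% and 2.88% of all genes, with a list median of 0.14 against -0.05. Among these, Shank2 rose by 2.02 (adjusted p = 0.016 by limma), Psd by 1.92 (adjusted p = 0.010), Cnksr2 by 1.32 (adjusted p = 0.020) and Kalrn by 0.88 (adjusted p = 0.043). Tanc1 fell by 0.82 (adjusted p = 0.037), a call kept in 1 of 7 leave-outs, as was that of Kalrn. The Psd call was kept in 7 of 7, that of Shank2 in 4 and that of Cnksr2 in 3. The count of 6 called genes ran from 1 to 7, with 1 or 2 called when any of the Res-T without trauma libraries, or Res-T with trauma replicate 3, was left out. With the oligodendrocyte covariate the Psd, Shank2 and Kalrn calls were kept. Those of Cnksr2 (1.26, adjusted p = 0.084 by limma) and Tanc1 (-0.49, adjusted p = 0.30) were lost. Trauma in Sus-T gave no call among the 33 (0.0203% of all genes higher, 0.0101% lower), with 2 at an unadjusted p under 0.05, Dlgap4 (-0.58, adjusted p = 0.38 by limma) and Slitrk1 (-0.87, adjusted p = 0.42).

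The trauma effect in Sus-T minus that in Res-T was lower for 5 of 33, beside 1.98% of all genes, with a list median of -0.37 against 0.02. These included Shank2 (-2.62, adjusted p = 0.030 by limma), Psd (-1.95, adjusted p = 0.045), Cnksr2 (-1.66, adjusted p = 0.043) and Dlgap4 (-1.31, adjusted p = 0.029). The count ran from 0 to 8 when single libraries were left out, with 0 without the first Sus-T without trauma or the second Res-T without trauma library. The Shank2 call was kept in 8 of 13 leave-outs, that of Dlgap4 in 7, and those of Psd and Cnksr2 in 2 each. With the oligodendrocyte covariate none of the 33 passed. The fitted differences were then -5.27 for Shank2, -3.50 for Psd, -1.43 for Dlgap4 and -1.48 for Cnksr2.

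In the cortex with trauma, 4 of 21 rose in Sus-T and none fell, beside 14.0% of all genes rising and 8.93% falling. The list median was 0.34 against 0.15. The rising count is not far from the share over all genes, so nothing about the list is read from it. Lrrtm3 rose by 2.73 (adjusted p = 0.015 by limma), Lrrtm1 by 2.61 (adjusted p = 0.016) and Slitrk3 by 2.42 (adjusted p = 0.021), all adhesion proteins of the postsynaptic membrane. Psd3, an Arf6 exchange factor, had 4652 ± 1145 in Sus-T with trauma, against 1441 ± 257 in Res-T with trauma (SD, n = 4 and 3; log2 difference 1.67, adjusted p = 0.0046 by limma). Leaving out single libraries kept the call of Psd3 in 7 of 7 cases, of Lrrtm3 in 5, of Lrrtm1 in 4 and of Slitrk3 in 3, and the count ran from 1 to 4. With the oligodendrocyte covariate none of the 4 passed, and the differences were 3.76 for Lrrtm3, 2.40 for Lrrtm1, 3.13 for Slitrk3 and 0.86 for Psd3. The other 4 prefrontal comparisons gave no call among the 21 by limma, where no gene of the table passed (0.0% higher). At an unadjusted p under 0.05 there were 2 of 21 for Sus-T against Res-T without trauma, 1 for trauma in Res-T, 0 for trauma in Sus-T and 1 for the difference of trauma effects. Psd3 (0.92, adjusted p = 0.45 by limma) and Tanc1 (1.0, adjusted p = 0.48) had the smallest p without trauma. For trauma in Res-T these were Tanc1 (1.17, adjusted p = 0.23 by limma) and Psd3 (-0.66, adjusted p = 0.37). For trauma in Sus-T they were Lrrtm1 (1.29) and Tanc1 (-0.63), each with an adjusted p of 0.9999 by limma. For the difference they were Tanc1 (-1.79) and Lrrtm1 (2.24), each with an adjusted p of 0.77 by limma.

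**Figure D5:**
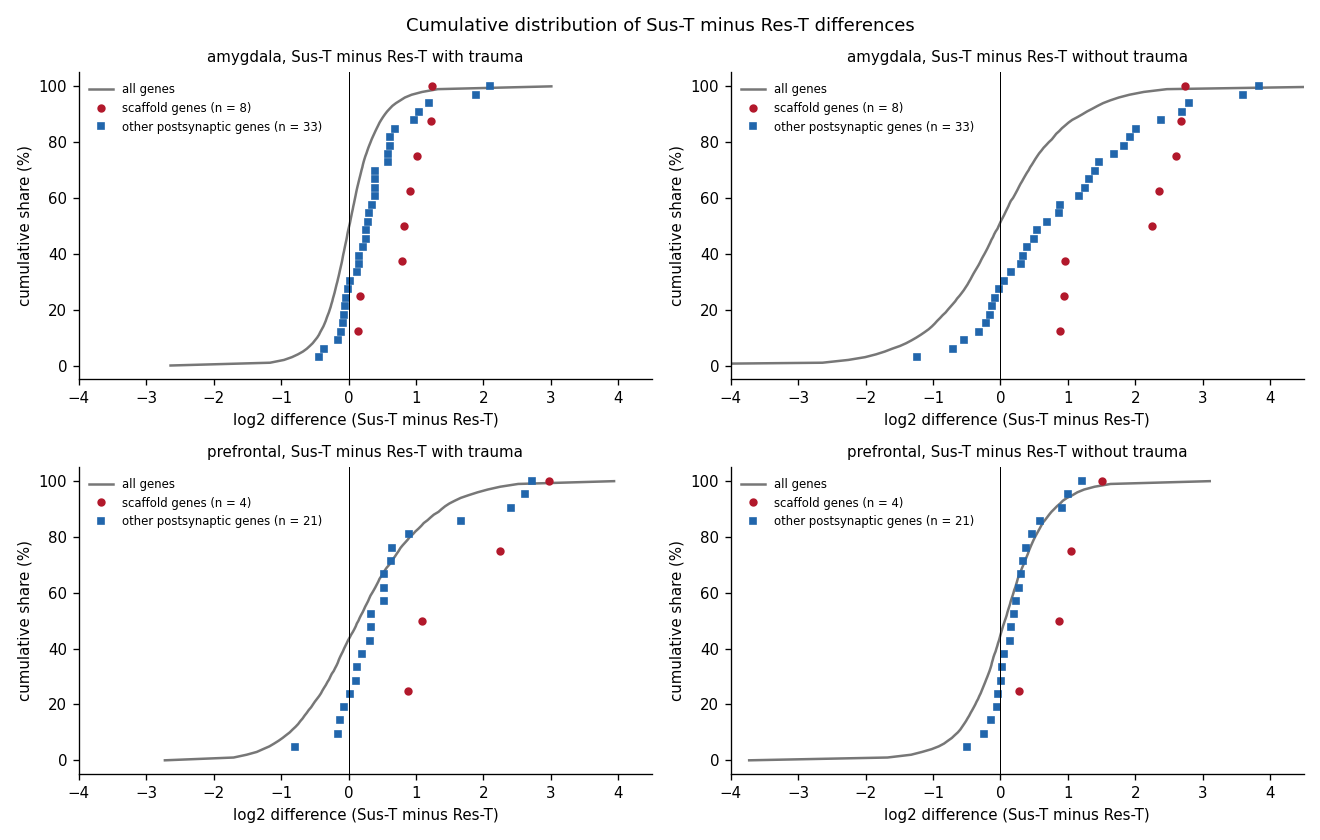
Cumulative share of genes (percent) against the log2 difference Sus-T minus Res-T, in the amygdala (top) and cortex (bottom), with trauma (left) and without (right), for all genes (line), scaffold genes (circles) and the other postsynaptic genes (squares); the axis leaves out the extreme genes of the amygdala without trauma. In the amygdala without trauma the scaffold genes start at 0.88 and their median is 2.31, while the median of the other postsynaptic genes is 0.69.

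Across the 13 amygdala libraries, the members' log2 values followed their own mean with Pearson r of 0.98 for Dlg4 and Sipa1l1, 0.98 for Dlgap1, 0.97 for Iqsec2 and 0.95 for Ppp1r9b, and less closely for Dlg3 (0.79), Homer1 (0.74) and Nlgn2 (0.68). The mean itself holds each member, and all points share groups and library composition. By the same measure the non-member genes most like them in the amygdala included Kifc2 (0.983), Fbxl16 (0.974), Sub1 (0.974) and Camk1d (0.971). In the 13 prefrontal libraries they were Crtc1 (0.975), Ripor1 (0.973), Osbp2 (0.966), Sptan1 (0.965) and Cds2 (0.965), while the 4 measured members lay at 0.86 to 0.89. Sptan1 encodes a spectrin of the membrane skeleton. Without trauma in the amygdala, Kifc2, a kinesin, differed by 2.08 ± 0.25 (log2, SE) between Sus-T and Res-T.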

How the data were processed

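The submitters' processing notes name bcl2fastq 2.20, Salmon 1.2 and the GRCm38.p6 build. Values deposited by the authors were read as a signal on an arbitrary scale; their normalization is not given in the sources used here. On the scale ln(value - 1), amygdala libraries spanned 11 of 12 possible dimensions and prefrontal ones 10, so the spread left between libraries may be too small. Of the 29 labelled samples, 3 had no column and were not analysed here: the second Sus-T without trauma sample in both regions, and the second prefrontal Res-T with trauma sample. Symbols and gene coordinates came from GENCODE M21 and promoters from RefSeq.

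A 4-group linear model was fitted per region to log2(value + 1) with limma 3.58.1 in R 4.3.3 (trend, robust; 9 residual degrees of freedom), over 9872 amygdala and 6080 prefrontal genes with a mean of at least 1, which removed none. The 5 contrasts per region were adjusted by Benjamini-Hochberg over all genes, with a threshold of 0.05. The plan foresaw a test of members in all prefrontal contrasts; none is printed for Sus-T minus Res-T with trauma, because that result was probably known when members were picked. The members and lists were chosen with earlier results of these data known. Named beside the 8 members were, per contrast and subgroup, up to 3 rising and 3 falling listed genes that passed, taken by smallest p (or the 2 lowest in p where fewer than 2 passed), and the 5 genes most alike per region; some of these are not reported here. The pipeline was tested on simulated data. Alternatives tried were log2(value + 10), quantile normalization, a minimum mean of 10, a replicate block, an oligodendrocyte covariate and leaving out each library. The oligodendrocyte covariate was the mean log2(value + 1) of the measured oligodendrocyte markers, centred over libraries, and not their summed share.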

Additional observations from a re-analysis of the deposited data

Results flagged for a closer look

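In the amygdala Sus-T with trauma group, replicate 1 lay far from the other 3 libraries for Dlg4, at a signal of 1177, and for Sipa1l1, at 1738. The gap to the nearest library was 0.932 of the group's range for Dlg4 and 0.967 for Sipa1l1. Of 24 groups of 4 libraries checked for the scaffold genes, these 2 stood out, and chance alone marks about 1 in 20. Without that library the Sus-T minus Res-T log2 difference with trauma was 0.76 for Dlg4 and 0.88 for Sipa1l1. The same library had the highest pyramidal marker share, at 0.119%, and its part in these values was not tested.

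The trauma effect differed between Sus-T and Res-T, by the limma test of that difference adjusted over all genes, for 5 other postsynaptic genes of the amygdala. Among them, the difference was -2.62 for Shank2, -1.95 for Psd, -1.66 for Cnksr2 and -1.31 for Dlgap4 on the log2 scale. The calls were kept in 8 of 13 leave-outs of single libraries for Shank2, in 7 for Dlgap4 and in 2 each for Psd and Cnksr2. The Psd call was kept in 2 of 3 other scalings and filters, and none of these calls was kept with the oligodendrocyte covariate.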

How the results depend on the processing

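Read depth is unknown and groups hold 2 to 4 libraries, which limits what could be detected. Calls are listed for all genes, then for the other postsynaptic genes. With the oligodendrocyte covariate, amygdala calls were 56 and 2 without trauma (2706 and 18 as reported), 5 and 1 with trauma (0 and 0), 1 for trauma in Sus-T (3), and 2 and 0 for the difference of trauma effects (665 and 5); prefrontal calls with trauma were 0 and 0 (1397 and 4). That fit reversed amygdala Homer1 without trauma (-0.37), for trauma in Res-T (-0.14) and for the difference of trauma effects (1.11). It also reversed prefrontal Homer1 for trauma in Res-T (0.15) and for the difference (-0.22). Amygdala calls with trauma were 2 under quantile normalization, a mean of at least 10 and log2(value + 10). For trauma in Sus-T they were 28, 17 and 18 under the same settings. Quantile normalization turned the prefrontal Homer1 difference of trauma effects to -0.050. The cause was not tested.

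Same-numbered libraries did not deviate together (16 pairs per region, median correlation -0.04 in the amygdala and -0.09 in the cortex, 3 over 0.1 in each). The replicate block gave 10 and 2 amygdala calls with trauma and 3 other postsynaptic genes for the difference of trauma effects, and kept the sign of each scaffold gene difference.

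Leaving out 1 library at a time gave these ranges in the amygdala: 1565 to 2096 and 10 to 14 calls without trauma, 0 to 12 and 0 to 2 with trauma, 101 to 708 and 1 to 7 for trauma in Res-T, 1 to 287 for trauma in Sus-T, and 59 to 810 and 0 to 8 for the difference. The lowest without trauma came without Sus-T without trauma replicate 1 (1565 and 11) and replicate 3 (10 listed genes). For trauma in Res-T, the counts were 101, 142 and 163 without Res-T without trauma replicates 1, 2 and 3 and 322 without Res-T with trauma replicate 3. Trauma in Sus-T gave 287 without Sus-T without trauma replicate 3. The difference gave 59 without Sus-T without trauma replicate 1, and 340, 340 and 379 without Res-T without trauma replicates 1, 2 and 3. Prefrontal ranges were 624 to 1163 and 1 to 4 with trauma, 0 to 53 without, 0 to 588 and 0 to 2 for trauma in Res-T, 0 to 3 for trauma in Sus-T and 0 to 12 for the difference. With trauma, 624, 924 and 669 genes passed without Res-T with trauma replicates 1, 3 and 4, and 886 without Sus-T with trauma replicate 3. Of trauma in Res-T, 588 passed without Res-T without trauma replicate 4, and 53 without trauma without Sus-T replicate 3. Prefrontal scaffold genes whose sign turned when a library was left out ranged from -0.91 to 0.027 (Iqsec2, trauma in Res-T), -0.23 to 0.10 (Homer1, trauma in Res-T), -0.34 to 0.25 (Dlg3, trauma in Sus-T), -0.27 to 0.10 (Homer1, trauma in Sus-T) and -0.18 to 0.19 (Homer1, difference of trauma effects). In the amygdala the sign turned for Nlgn2 between Sus-T and Res-T with trauma (-0.011 to 0.27). For trauma in Sus-T it turned for Sipa1l1 (-0.38 to 0.093), Nlgn2 (-0.41 to 0.099) and Homer1 (-0.25 to 0.54). The amygdala difference of trauma effects turned for Homer1 (-0.50 to 0.29).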
